A study of Mus musculus with 6 samples.

Results

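The EGF receptor family and its ligands were described in mouse liver by every array probe that carries the symbol of 1 of 10 genes. The receptors were Egfr, Erbb2, Erbb3 and Erbb4, and the ligands were Egf, Tgfa, Areg, Ereg, Hbegf and Btc. The array held 13 probes for them, 7 for receptors and 6 for ligands, among 55681 probes that are not controls, and the 10 genes are among 24239 symbols on the array. The livers came from male B6C3F1 mice aged 7 weeks that were dosed by mouth for 5 days. Control mice received corn oil, and TCE mice received trichloroethylene, a chlorinated solvent, at 1000 mg/kg body weight in corn oil. Each group had 3 mice with 1 single-colour array per mouse, and the other dose groups of the study were not analysed here. Because whole liver was used, fewer cells of a type and less RNA per cell cannot be told apart.

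The receptors are tyrosine kinases that pair on the cell surface when a ligand binds, and they signal through the RAS-MAPK cascade, PI3K-AKT and STAT factors. Erbb2 has no known ligand of its own, and Erbb3 has little kinase activity, so both act mainly as partners. EGFR is abundant in hepatocytes and is known for its part in liver growth and regeneration. The mouse Egfr gene also gives a shorter transcript, RefSeq variant 2, for a receptor form that lacks the membrane-spanning and kinase parts, whereas variant 1 encodes the full receptor.

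The 3 Egfr probes lie on the plus strand of chromosome 11 (mm9). The upstream variant 2 probe is at chr11:16783556-16783615 and the downstream variant 2 probe at chr11:16787172-16787231, and both are assigned to NM_007912. The variant 1 probe is at chr11:16813815-16813874 and is assigned to NM_207655. The sequences are shown because the probes assigned to the 2 transcripts gave different values. The first 2 are whole, and the last is the first 30 of 60 bases. The starts of the variant 2 probes are 89 bases apart on that transcript. Capitals mark the TAA stop codon met first in each of the 2 reading frames that have no stop in the upstream probe, at bases 41 to 43 and 58 to 60. The annotation does not list variant 1 for the upstream probe, but whether that probe also binds variant 1 RNA was not tested. The probe names therefore give the assigned transcript, and the upstream probe may not be specific to variant 2.
Egfr variant 2 upstream: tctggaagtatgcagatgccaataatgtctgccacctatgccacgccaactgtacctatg
Egfr variant 2 downstream: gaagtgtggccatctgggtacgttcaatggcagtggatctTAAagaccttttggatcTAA
Egfr variant 1: gttgcaagccactctaactgtagcaatgaa

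Egfr signal was lower in TCE liver at both variant 2 probes. All signals are log2 intensities after quantile normalization, and levels of different probes are not comparable with each other. At the downstream probe the control mice gave 13.25, 13.48 and 13.41 and the TCE mice 11.83, 12.01 and 12.29. The groups did not overlap, and the control mice lay close together. The mean fell from 13.38 ± 0.12 to 12.04 ± 0.23 (SD, n = 3 per group). The log2 change was -1.33 with a standard error (SE) of 0.15, or 2.52-fold lower (95% interval of the log2 change -1.70 to -0.96, limma adjusted p = 0.0149). At the upstream probe the control mice gave 13.10, 13.16 and 13.10 and the TCE mice 11.71, 11.92 and 12.13. Here too every TCE mouse was below every control mouse. The log2 change was -1.20 (SE 0.14, interval -1.53 to -0.87), or 2.30-fold lower, with a limma adjusted p of 0.0149. An exact two-sided permutation test gave 0.1 for each variant 2 probe, the smallest p that 3 against 3 mice allow.

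The variant 1 probe did not pass the test. It gave 14.70, 13.92 and 13.77 in the control mice and 13.97, 13.16 and 14.26 in the TCE mice. The groups overlapped, with control mouse 1 the highest and TCE mouse 2 the lowest. The log2 change was -0.33 (SE 0.36, interval -1.20 to 0.53, limma adjusted p = 0.672), and the exact permutation p was 0.6. The interval reaches the size of the change at the upstream variant 2 probe, so these mice do not show that variant 1 kept its level. The 10 spots of this probe had an SD of only 0.0312 to 0.152 within an array, while its SE was larger than that of 90.5% of detected probes. Without control mouse 1 its change was -0.05, and without TCE mouse 2 it was -0.02.

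**Figure D1:**
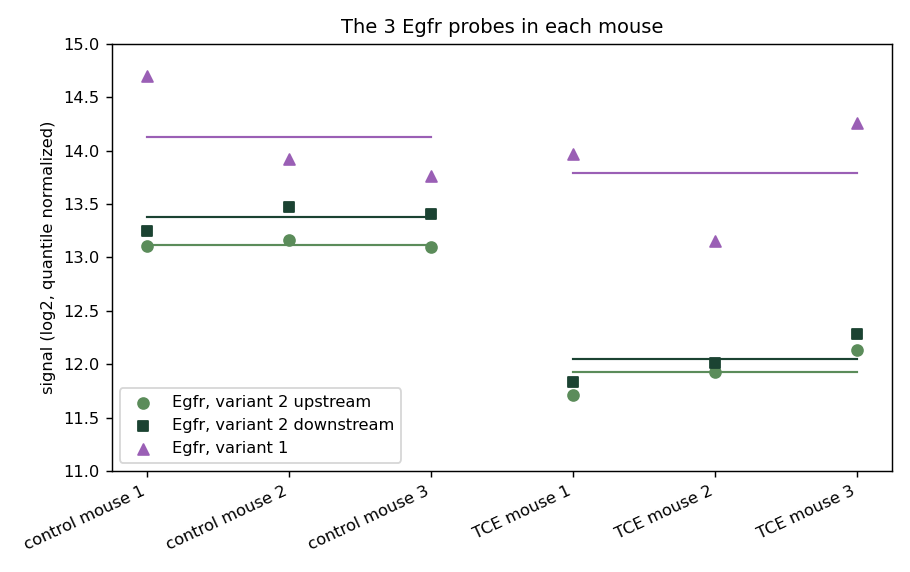
Signal (log2, quantile normalized, vertical axis) of the 3 Egfr probes in each of the 6 mice, with lines at the group means. Both variant 2 probes are lower in all 3 TCE mice, while the variant 1 probe overlaps between the groups.

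Whether the probes changed unequally was tested on their difference within each mouse, for 3 pairs of probes. Variant 1 minus downstream variant 2 was 1.46, 0.45 and 0.36 in the control mice and 2.13, 1.15 and 1.98 in the TCE mice. Control mouse 1 lay above TCE mouse 2, so the groups overlapped. The mean difference rose from 0.75 to 1.75, by 1.00, with an exact permutation p of 0.2. For variant 1 against the upstream probe the shift was 0.86, and for the variant 2 probes against each other it was -0.13, each with an exact permutation p of 0.2. Because 3 against 3 mice cannot give a p under 0.1, this test could not have shown an unequal change, and whether the transcripts changed unequally was not settled by these mice.

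The Egfr call depended on single mice. A probe was called where limma's adjusted p was 0.05 or lower and the fold at least 2. At the downstream probe the adjusted p by limma was 0.0829 without control mouse 2, 0.0692 without control mouse 3, 0.0544 without TCE mouse 1 and 0.0504 without TCE mouse 2. The log2 change stayed between -1.45 and -1.23 over the 6 fits that leave out 1 mouse. At the upstream probe it lay between -1.30 and -1.09, and the call was lost without any 1 of the control mice (adjusted p by limma of 0.0609, 0.0856 and 0.0648) and without TCE mouse 1 (0.0513). The call also depends on the probe taken for the gene: the brightest one, for variant 1, is not called, and the mean of the 3 probes changed by -0.96 (adjusted p = 0.0346, limma), short of a fold of 2.

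Of the 8 member probes tested, both Egfr variant 2 probes were called and the other 6 were not. Over all 22730 detected probes 1.41% were called, and 0.383% were called lower. Detected probes are those that the scanner software rated above background on every array of control, of TCE or of both. The same 2 member probes were those whose groups did not overlap, against 25.7% of all detected probes (10.2% with TCE lower). By gene, 1 of 6 tested members was called by any of its probes, against 1.93% of 13283 genes (0.489% lower). The median log2 change was -0.18 over the 8 member probes and 0.02 over all detected probes.

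The 3 other receptors were not called. Erbb2, the shared partner of the family (chr11:98298103-98298162), gave 5.56, 5.49 and 5.12 in control and 5.14, 5.58 and 5.40 in TCE mice. Its log2 change was -0.01 (SE 0.18, interval -0.44 to 0.41, limma adjusted p = 0.980). Erbb3, the neuregulin receptor with little kinase activity (chr10:128006424-128006483), gave 5.42, 6.14 and 5.48 in control and 6.13, 6.09 and 6.28 in TCE mice. Control mouse 2 lay among the TCE mice, and the log2 change of 0.49 (SE 0.21, interval -0.02 to 1.00) had a limma adjusted p of 0.297. Erbb4, another neuregulin receptor, had 1 detected probe (chr1:68078805-68078864), with 6.89, 6.93 and 6.59 in control and 6.53, 6.44 and 6.67 in TCE mice. The groups overlapped, and the log2 change was -0.26 (SE 0.14, interval -0.60 to 0.08, limma adjusted p = 0.400). The other Erbb4 probe (chr1:68086686-68086745) never rose above background and read 2.53 to 2.68.

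Only Hbegf and Tgfa among the 6 member ligands were detected. Hbegf, the heparin-binding ligand (mm9 chromosome 18), gave 9.13, 8.84 and 9.17 in control and 9.22, 9.03 and 8.56 in TCE mice. TCE mouse 1 was the highest and TCE mouse 3 the lowest, and the log2 change was -0.11 (SE 0.20, interval -0.59 to 0.37, limma adjusted p = 0.818). Tgfa, a ligand of Egfr (chr6:86224838-86224897), gave 5.79, 6.05 and 5.60 in control and 6.09, 5.94 and 5.76 in TCE mice. These groups overlapped as well, with a log2 change of 0.12 (SE 0.16, interval -0.27 to 0.50, limma adjusted p = 0.75). Egf itself, Areg, Ereg and Btc failed the background rating on all 6 arrays and were not tested. Egf ran from 4.36 to 4.57 in control and from 3.76 to 4.73 in TCE mice, with at most 5 of its 10 spots above background on an array. Ereg read 3.75 in TCE mouse 2 and 2.60 to 2.73 in the others. Areg, amphiregulin, ran from 2.49 to 3.00 in control and from 2.53 to 3.33 in TCE mice. Btc, betacellulin, ran from 3.50 to 4.20 in control and from 4.09 to 4.64 in TCE mice.

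**Figure D2:**
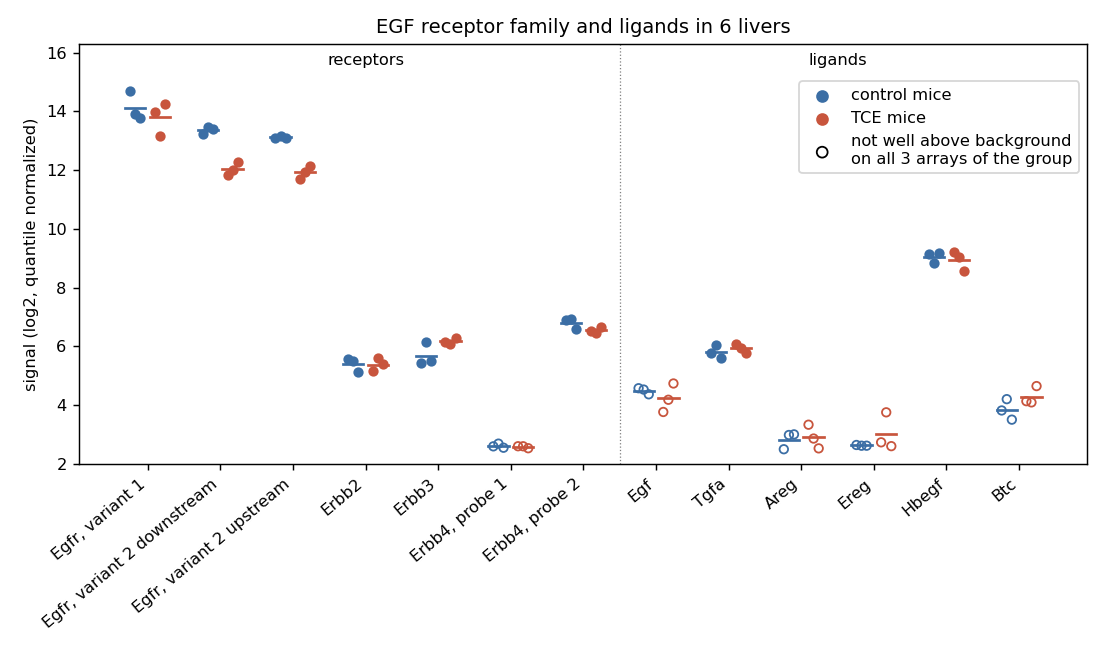
Signal (log2, quantile normalized, vertical axis) of the 13 probes by mouse, with lines at group means and open circles where at least 1 array of the group failed the background rating. The groups lie apart at the Egfr variant 2 probes, and 4 of the 6 ligands are open in both groups.

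The ligands outside the member list were the neuregulins, which bind Erbb3 or Erbb4 or both, and Epgn. Nrg1 and Nrg4 were detected, and Nrg2, Nrg3 and Epgn were not. Nrg4 was higher in every TCE mouse than in every control mouse at all 3 of its probes, by unequal amounts. The groups also lay apart at 25.7% of all detected probes, in either direction, and the 3 probes were read in the same mice. Its brightest probe (chr9:55068030-55068089), which stood for the gene, went from 9.63 ± 0.29 to 10.85 ± 0.37 (SD, n = 3 per group). That log2 change of 1.22 (SE 0.24) missed the threshold at a limma adjusted p of 0.0655. A probe on a spliced stretch within chr9:55075745-55084303 changed by 0.60 (SE 0.23, limma adjusted p = 0.249). Its lowest TCE mouse read 9.16 and its highest control mouse 9.13. The probe for the cDNA AK080089 (chr9:55088520-55088579) was called, as were 1.03% of all detected probes in the higher direction. It gave 7.38, 6.51 and 6.73 in control and 9.59, 9.52 and 8.60 in TCE mice, a log2 change of 2.37 (SE 0.34, limma adjusted p = 0.0294). Counting a pathway gene by any of its probes was decided after these values were seen, and Nrg4 was the only pathway gene it added. The AK080089 call was lost without control mouse 2 (limma adjusted p = 0.118), control mouse 3 (0.104), TCE mouse 1 (0.107) or TCE mouse 2 (0.0801). It was also lost with no filter on dim probes (limma adjusted p = 0.132) and by the methods' t-test after Benjamini-Hochberg adjustment (0.123). With the replicate block the limma adjusted p was 0.0879. With normexp background correction the log2 change of this probe was 1.48. Nrg1 passed the background rating in all 3 TCE mice and in 0 control mice. It was therefore tested only through the group where it is high, so the filter favoured a higher value in TCE. Where a probe had to be well above background on every array, Nrg1 was left out. It gave 4.01, 3.25 and 4.70 against 6.67, 5.93 and 5.93, at least 2.63-fold higher against the lowest signal well above background. Its limma adjusted p was 0.0551. The size rests on the background treatment: with normexp and its offset of 50, the log2 change was 0.69, below that bound, against 2.19 as fitted here.

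**Figure D3:**
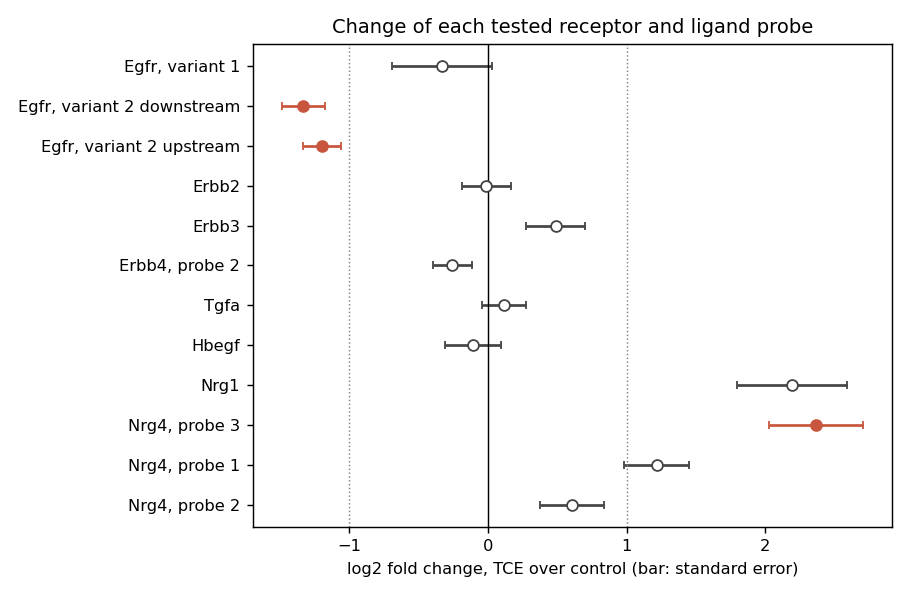
Log2 fold change, TCE over control (horizontal axis), of each tested receptor and ligand probe, with bars for the standard error, dotted lines at a fold of 2 and filled points for called probes. Both Egfr variant 2 probes lie below -1, and all Nrg1 and Nrg4 probes lie above 0.

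Genes that act with the receptors were grouped by role, with the brightest detected probe for each gene. Of 101 pathway genes on the array 84 were detected, 50 with a value above 0 and 34 below. By this 1 probe per gene 0 were called, against 1.73% of all genes. Their median log2 change was 0.06, and that of all genes was 0.02, with 53.1% of all genes above 0. Among the 6 detected genes of ligand release, Rhbdf2, which helps ADAM17 to mature, had a log2 change of 0.64 (SE 0.23, limma adjusted p = 0.223). Adam12, a metalloprotease, had 0.49 (limma adjusted p = 0.756), and its spread came from TCE mouse 3, at 7.84. Of 20 receptor inhibitors and turnover genes, 8 had values above 0 and 12 below. The adaptor Grb10 had -0.75 (limma adjusted p = 0.267), and it was well above background on 1 TCE array. Grb14, a related adaptor, had -0.71 (limma adjusted p = 0.579). Of 24 adaptors and RAS-MAPK genes, 16 had values above 0, led by Crk with 0.42 (limma adjusted p = 0.164) and Nck2 with 0.41 (0.536). The list for the PI3K-AKT and STAT branch had 9 above and 9 below among 18 detected. Its largest value, 0.75 (limma adjusted p = 0.127), was that of Pdk1, which in the mouse is pyruvate dehydrogenase kinase and does not belong to the branch. Without it 8 were above and 9 below. Pik3r1, a regulatory subunit of PI3K, had -0.42 (limma adjusted p = 0.366).

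The list of ERK-dependent transcripts had 10 values above 0 and 4 below among 14 detected, with a median of 0.29. Of all detected genes 53.1% were above 0. The other 6 of its 20 genes, Dusp4, Dusp5, Spry2, Spry4, Fos and Fosl1, were not detected. It held Elk1 and Rps6ka1, which are substrates of ERK and not transcripts it is known to induce. Without them 8 were above and 4 below, with a median of 0.40. Without these and Pdk1, all pathway lists together had 47 above and 34 below among 81 detected, with a median of 0.05. Phlda1 had the lowest value, at 13.37 ± 0.69 in control and 12.09 ± 0.28 in TCE mice (SD, n = 3 per group). Its log2 change of -1.28 (SE 0.36) had a limma adjusted p of 0.141. Ier3 had the highest, 1.02 (limma adjusted p = 0.164), and was called only without TCE mouse 3 (1.36, limma adjusted p = 0.0463). Ier3 was dim, with a control mean of 4.91, and was above background on 2 control and 3 TCE arrays. It was therefore tested only through the group where it is high.

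**Figure D4:**
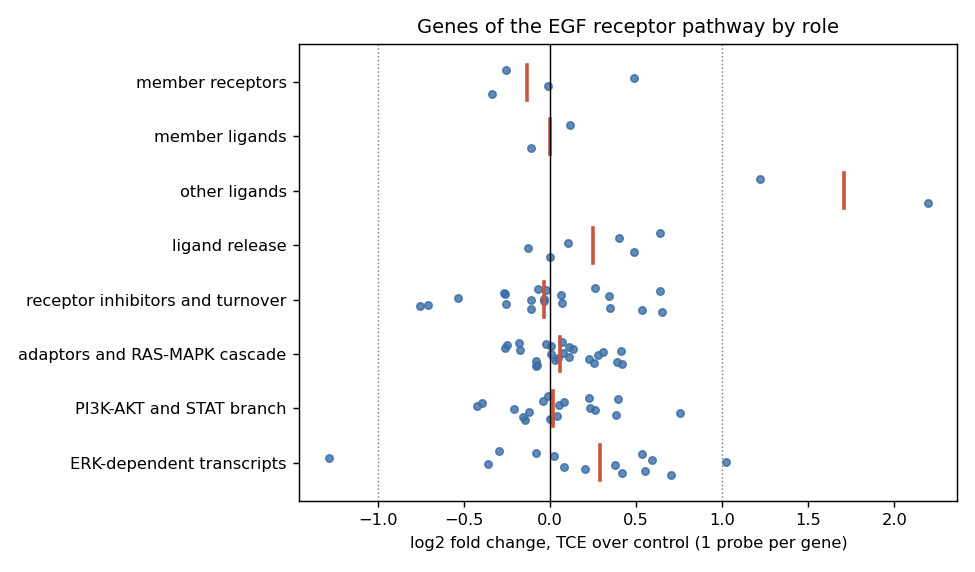
Log2 fold change, TCE over control (horizontal axis), of each detected gene by role, 1 probe per gene, with a red line at each list's median and dotted lines at a fold of 2. Most genes lie between -1 and 1, and no listed gene was called by this probe. The points include Pdk1, Elk1 and Rps6ka1, which do not belong to their lists.

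The genes most like the variant 1 probe across the 6 mice, among 15282 probes, were Cdc16 (Pearson r = 0.99), Sash1 (0.97) and Dnajb6 (0.97). For the downstream variant 2 probe, chosen for this after its values were seen, they were Pnn, Susd4 and Hdhd3, all with r above 0.99. These correlations share the same 6 arrays and include the difference between the groups. The named genes are the top of a ranking over 15282 probes in 6 mice. How high such r values rise through ranking alone was not tested. Cdc16 ran only from 11.14 to 11.28 over the mice, with a log2 change of -0.03.

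Hepatocyte markers were well above background on all 6 arrays (9 of 9 on the array). Their summed intensity was 1685000 to 1740000 in control and 1571000 to 1714000 in TCE mice. A summed intensity follows the brightest probes of its list, so the mean log2 signal is added where the measures differ in overlap. For hepatocyte markers that mean was 16.89 to 16.97 in control and 16.82 to 16.88 in TCE mice, without overlap. The groups nearly met, at 16.885 in the lowest control and 16.883 in the highest TCE mouse, and the median log2 change was -0.06. Among single detected probes 25.7% did not overlap between the groups, in either direction, so a lack of overlap is common in these data. Endothelial markers were below 0 in log2 change for 8 of 8, with 0 called, and their summed intensity was 26490 to 27120 in control and 14760 to 28260 in TCE mice. Lymphocyte markers (5 of 9 detected) had a summed intensity of 16300 to 19930 in control and 6069 to 15930 in TCE mice. These ranges did not overlap, but the mean log2 signal did, at 8.80 to 8.94 in control and 8.58 to 9.08 in TCE mice. Of these markers 2 were above 0 in log2 change and 3 below. Cd4, the brightest of them at a control mean of 14.01, had a log2 change of -0.93 (limma adjusted p = 0.279). The summed intensity of stellate cell markers (7 of 8 detected) was 26690 to 39630 in control and 29960 to 35880 in TCE mice. Within that list 2 markers were above 0 in log2 change and 5 below. Lrat had -1.35 (limma adjusted p = 0.0676) and Reln -1.34 (0.368), values as large as those of the Egfr variant 2 probes. The other detected stellate markers lay between -0.25 and 0.25. Reln had a control SD of 1.26 and was above background on 2 TCE arrays. Smooth muscle markers (6 of 8 detected) summed to 2966 to 3505 in control and 2813 to 4476 in TCE mice. Their mean log2 signal was 7.80 to 7.98 in control and 7.35 to 7.58 in TCE mice, without overlap, with 2 markers above 0 in log2 change and 4 below. That mean includes Cnn1, which was above background in 0 TCE mice and at least 1.67-fold lower (limma adjusted p = 0.114). In the paper, qPCR did not show a decrease of Cnn1. Granulocyte markers (5 of 7 detected) summed to 11920 to 25770 in control and 19740 to 29200 in TCE mice. Their mean log2 signal was 9.10 to 9.29 in control and 9.55 to 9.81 in TCE mice, without overlap. Of these markers 4 were above 0 in log2 change and 1 below, and S100a8 had 1.19 (limma adjusted p = 0.0886). Kupffer and macrophage markers (8 detected) summed to 24390 to 27710 in control and 23210 to 29090 in TCE mice. Of the cholangiocyte markers, which summed to 630.2 to 804.2 in control and 550.3 to 715.8 in TCE mice, Krt7, Epcam and Cftr were not detected. None of the 8 marker lists had a called gene, and the part of these cell types in the Egfr and Nrg4 values was not tested. The arrays had 23537 to 24964 probes well above background. Control mouse 1 was on a slide of its own, and without it the downstream Egfr probe changed by -1.40 (limma adjusted p = 0.0485).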

How the data were processed

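Liver RNA of 6 mice was hybridised to Agilent single-colour arrays, and the authors extracted the spots with Agilent Feature Extraction 10.7.1.1 (submitters' processing notes). The deposited scanner output gives a background-subtracted intensity per spot. A deposited table gives group mean intensities and the authors' quantile-normalized log2 group means, and it supplied the gene symbols. Its 6 detection columns were not used, because their names clash with the sample titles. Coordinates (mm9) were taken from the array annotation.

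Control and outlier spots were removed, intensities were put on the log2 scale, spots of a probe were averaged, and arrays were quantile normalized. For a probe with several spots, more than 50% had to be well above background. The resulting group means lie within 0.01 of the deposited ones for 99.95% of probes. The test was limma's moderated test (version 3.58.1, R 4.3.3; two-sided, Benjamini-Hochberg over all detected probes). The study's methods used a t-test at an unadjusted p, which was run as an alternative. A bound for a dim group was set at the lowest signal well above background. Exact permutation tests used all 20 splits of the mice; those of the variant 2 probes and of the probe differences were added after the data were examined, as were the alternatives for Nrg1 and Nrg4, the removal of 3 misplaced genes from the pathway lists and the count of pathway genes by any probe. The code was tested on simulated data. The number of arrays limits the precision.

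The members, the pathway and marker lists and the tests were chosen with earlier results of these data known. Every member probe is named. In each pathway list the genes past the threshold, or otherwise the 2 with the largest change, are named, with the 3 genes most like the brightest Egfr probe. Alternatives covered normalization, background correction (normexp, offset 50), filters, outlier spots, blocks, the variance model, tests, and each mouse left out.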

Additional observations from a re-analysis of the deposited data

How the results depend on the processing

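No called value changed direction under any alternative run. Erbb2 and Hbegf, which were not called, changed sign with 1 mouse left out (-0.15 to 0.10 and -0.25 to 0.08). The adjusted p of the downstream Egfr variant 2 change of -1.33 was 0.0715 with no filter on dim probes, 0.0766 with the methods' t-test after Benjamini-Hochberg and 0.00436 with normexp. Leaving out 1 mouse gave -1.45 to -1.23. Called member genes numbered 1, and 0 with no filter, with that adjusted t-test and with some mice left out (0 to 1). Called probes numbered 321 (72.9% higher in TCE), and 96 with no filter (81.2% higher), 177 with slide as a block (83.1%), 594 by the methods' t-test unadjusted, 35 by it after adjustment (88.6%) and 126 to 272 with 1 mouse left out (177 without control mouse 1, 126 without control mouse 2, 145 without control mouse 3 and 133 without TCE mouse 1). Called pathway genes numbered 0, and 2 with a trended robust variance (Nrg1, Nrg4), 3 by the unadjusted t-test (Phlda1, Nrg1, Nrg4), 2 with the mean of all probes of a gene, 1 by any probe and 0 to 1 with 1 mouse left out. The cause of these differences was not tested. Control mouse 1 was alone on its slide, so the slide block gave the same fit as leaving out that mouse. Slide and mouse cannot be told apart there. No pairing by replicate number was seen: deviations of same-numbered mice correlated at 0.0897, 0.00656 and -0.0916. Differently numbered mice were not compared, so this check could have missed a small shared effect. With the replicate block 63 probes (88.9% higher) and 0 member genes were called, and the downstream Egfr change of -1.33 had an adjusted p of 0.0853. Dim probes such as those of Erbb2 and Erbb3 are measured with little signal over background.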
